A study of Arabidopsis thaliana with 6 samples.

Results

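The nuclear genes of the photosystems of Arabidopsis thaliana, without the LHCB1 and LHCB2 genes of the main trimeric antenna, form a set of 36 loci among the 27416 loci quantified. The set holds 12 genes for subunits of photosystem I (PSA genes) and 11 genes for subunits and associated proteins of photosystem II (PSB genes). It also holds 13 antenna genes, LHCA1 to LHCA6 and LHCB3 to LHCB7. These 36 genes were chosen by name and function, with earlier results of these data known. Their transcripts were compared between plants whose labels give the genotype ucp1 ucp3, a double mutant, and wild-type plants, with 3 biological replicates in each group. Both groups were of the Columbia ecotype, 21 days old and kept on MS medium under normal conditions, and RNA came from vegetative tissue. The labels name no allele of either gene and no transgene, and do not say how many plants each replicate holds. UCP1 and UCP3 encode uncoupling proteins, which carry metabolites and protons across the inner membrane of mitochondria.

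The photosystems are pigment-protein complexes of the thylakoid membrane. Photosystem II takes electrons from water and passes them through plastoquinone, the cytochrome b6f complex and plastocyanin to photosystem I, which reduces ferredoxin. The reaction-centre proteins are encoded in the plastid, while many small subunits and all light-harvesting proteins are encoded in the nucleus and imported. The LHCA proteins bind to photosystem I, LHCB3 is part of trimers next to photosystem II, and LHCB4, LHCB5 and LHCB6 (CP29, CP26 and CP24) are the monomeric or minor antennae that join those trimers to the photosystem II core.

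The 6 tables held totals of 1183612 to 11296137 estimated counts in the ucp1 ucp3-labelled libraries and of 3497081 to 4813549 in the wild-type libraries. The shallowest library, ucp1 ucp3-labelled replicate 3, stood apart on the first principal component, at -59.3 against -9.42 and 1.26 in the others of its group and 17.7 to 28.8 in the wild-type libraries. Transcripts of the genes named in the genotype were present: UCP1 had 67.2, 46.6 and 53.3 CPM (counts scaled to a common library size) in the ucp1 ucp3-labelled libraries, against 69.2, 67.3 and 75.3 CPM in the wild-type libraries (log2 fold change -0.35, edgeR adjusted p = 0.226). UCP3 had 8.68, 10.2 and 10.8 CPM in the ucp1 ucp3-labelled libraries, against 12.3, 16.1 and 13.0 CPM in the wild-type libraries (log2 fold change -0.49, edgeR adjusted p = 0.224). Both genes were lower at an unadjusted edgeR p under 0.05, as were 8.37% of all tested genes. In both, every ucp1 ucp3-labelled library lay below every wild-type library, which was so for 12.4% of all tested genes. The 2 genes did not pass the test at an adjusted p under 0.05, so their levels do not check the genotype labels. Summed leaf markers (RBCS1A, RCA, CA1 and GAPA) lay at 19646 to 23618 CPM in the ucp1 ucp3-labelled libraries and 18845 to 21373 CPM in the wild-type libraries. Summed root markers lay at 1565 to 2057 CPM in the ucp1 ucp3-labelled libraries and 1765 to 2523 CPM in the wild-type libraries, most of it from the beta-glucosidase gene PYK10, whose log2 fold change was -0.18. The other 10 tested root markers had estimates above 0, and the median log2 fold change of the 11 tested was 0.38, with CASP2 highest at 0.89 (edgeR adjusted p = 0.174). Of the 12 root markers CASP5 was at 0 in replicates 1 and 3 of the ucp1 ucp3-labelled libraries. The 4 floral organ markers summed to 13.7 to 18.1 CPM in the ucp1 ucp3-labelled libraries and 15.1 to 16.7 CPM in the wild-type libraries, with AP3 at 0 in wild-type replicates 2 and 3 and AG at 0 in wild-type replicate 2. Of the 4 leaf, 11 root and 2 floral markers that could be tested, edgeR and DESeq2 called 0, and 1 root marker was higher at an unadjusted p under 0.05.

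All 36 photosystem and antenna genes passed the expression filter, and none passed the test between genotypes at an adjusted p under 0.05 (edgeR quasi-likelihood test, Benjamini-Hochberg over 17415 genes). Most nevertheless leaned to the same side. At an unadjusted p under 0.05, 23 genes were higher and 1 was lower in the ucp1 ucp3-labelled libraries, and DESeq2 called 14 higher and 0 lower. With no expression filter edgeR called 5 of the 36 higher, against 1.17% of all genes then tested. Over all tested genes edgeR called 0.781% higher and 0.482% lower, DESeq2 called 1.34% higher and 0.861% lower, and 8.04% were higher and 8.37% lower at the unadjusted threshold. The median log2 fold change of the 36 genes was 0.34, with a range of -0.65 to 0.72, against a median of -0.0024 over all tested genes, 0.38 over the 11 tested root markers and 0.05 over the 4 leaf markers. The part of differences in tissue in these values was not tested. The estimate was above 0 for 34 of the 36, the exceptions being LHCB4.3 and PSBS, and for 49.7% of all tested genes. Since the genes were chosen with earlier results known, these shares describe the set and do not test it.

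The CPM values of the groups did not overlap for 24 of the 36 genes. In 23 of these every ucp1 ucp3-labelled library lay above every wild-type library, which was so for 11.2% of all tested genes, and in 1, LHCB4.3, every one lay below, which was so for 12.4%. TPM values divide by transcript length and lack the TMM scaling between libraries that CPM values have. On the TPM scale every ucp1 ucp3-labelled library lay above every wild-type library for 20 genes, against 6.64% of all tested genes. LHCB4.3 lay below in this way, against 18.1%. Replicate 3 labelled ucp1 ucp3, the shallowest library, gave the highest value of 35 of the 36 genes (97.2%), and of 26.5% of all tested genes. Measured as the median log2 distance of the 36 genes from the wild-type mean, the ucp1 ucp3-labelled libraries stood at 0.29, 0.17 and 0.58 and the wild-type libraries at 0.01, -0.06 and 0.05. Without replicate 3 labelled ucp1 ucp3 the class medians given below were 0.23 for photosystem I, 0.17 for photosystem II and 0.29 for the antenna genes, and none of the 36 genes was called, against 0.303% of tested genes called higher and 0.107% lower in that fit. Without replicate 2 labelled ucp1 ucp3, which lay nearest to the wild-type libraries, 11 genes were called higher, against 1.84% of the genes tested in that fit. In bulk tissue, more or fewer green cells and more or less photosystem RNA per cell cannot be told apart.

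The plot of each gene by library shows where each library stood on the 36 genes. In replicate 1, 2 and 3 labelled ucp1 ucp3, 28, 32 and 35 of the 36 lay above their wild-type mean, against 21, 5 and 23 in the wild-type libraries. The 36 genes together held 7.19, 6.77 and 8.63% of all estimated counts in the ucp1 ucp3-labelled libraries and 5.91, 5.80 and 6.25% in the wild-type libraries.

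Among the antenna genes the median log2 fold change was 0.46, and LHCB3 had the highest estimate of all 36 genes. LHCB3 (AT5G54270, chr5:22038165-22039568, plus strand) encodes the trimer protein that lacks the phosphorylation site of its relatives LHCB1 and LHCB2. It had 3110, 2948 and 4688 CPM in the ucp1 ucp3-labelled libraries, against 1904, 2081 and 2543 CPM in the wild-type libraries. The groups did not overlap, and replicate 3 was the highest library in both. The log2 fold change was 0.72 (95% interval 0.33 to 1.1, a fold of 1.64) with an edgeR adjusted p of 0.0681.

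The estimates of the 3 CP29 genes differed in sign. LHCB4.1 (AT5G01530, chr5:208866-210548) had 3714, 3365 and 4344 CPM in the ucp1 ucp3-labelled libraries, against 3095, 2607 and 3103 CPM in the wild-type libraries (log2 fold change 0.37, edgeR adjusted p = 0.184). LHCB4.2 (AT3G08940, chr3:2717557-2718923) had 1161, 992 and 1661 CPM in the ucp1 ucp3-labelled libraries, against 719, 723 and 999.6 CPM in the wild-type libraries (log2 fold change 0.64, 95% interval 0.21 to 1.07, edgeR adjusted p = 0.132). The groups were apart for LHCB4.1, whereas for LHCB4.2 replicate 2 labelled ucp1 ucp3 lay just under wild-type replicate 3. LHCB4.3 (AT2G40100, chr2:16745628-16747424), a weakly expressed copy also known as LHCB8, had 19.2, 18.4 and 17.2 CPM in the ucp1 ucp3-labelled libraries, against 28.7, 33.5 and 25.1 CPM in the wild-type libraries. Its lowest wild-type value lay above its highest value in the ucp1 ucp3-labelled libraries. It had the smallest adjusted p of the 36 genes, with a log2 fold change of -0.65 (95% interval -0.98 to -0.32, edgeR adjusted p = 0.0557), resting on 19 to 209 estimated counts per library. LHCB4.3 was called lower without the expression filter (0.976% of genes lower in that fit), with library totals in place of TMM scaling (0.632%) and without wild-type replicate 3 (0.247%). The coding sequence of LHCB4.3 was 70.6% identical to that of LHCB4.1 and 73.3% identical to that of LHCB4.2, which were 82.1% identical to each other.

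The upstream sequences of LHCB3 and of the 3 CP29 genes are printed because these antenna genes hold the highest and the lowest estimate of the set. They run from up to 250 bases before the annotated gene start to the base before it. All are read on the plus strand of the TAIR10.1 RefSeq assembly. Where an annotated exon of a neighbouring gene reaches into that window, the printed sequence begins after it. Capitals mark 4 motifs, each searched on both strands. The first is the G-box, CACGTG. The second is the CCAAT box, which reads ATTGG on the other strand. The third is the I-box core, GATAAG. The fourth is the TATA box, TATAAA, which reads TTTATA on the other strand. The evening element, AAATATCT, was searched too and is in none of them.
LHCB3 (chr5:22038053-22038164): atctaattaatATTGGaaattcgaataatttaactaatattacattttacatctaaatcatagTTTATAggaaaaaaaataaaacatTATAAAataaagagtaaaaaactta
LHCB4.1 (chr5:208616-208865): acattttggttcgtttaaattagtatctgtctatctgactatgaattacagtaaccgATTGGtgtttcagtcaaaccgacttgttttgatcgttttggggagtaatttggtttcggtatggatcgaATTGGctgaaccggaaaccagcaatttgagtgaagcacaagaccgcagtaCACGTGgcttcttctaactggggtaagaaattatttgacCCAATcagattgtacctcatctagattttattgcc
LHCB4.2 (chr3:2717367-2717556): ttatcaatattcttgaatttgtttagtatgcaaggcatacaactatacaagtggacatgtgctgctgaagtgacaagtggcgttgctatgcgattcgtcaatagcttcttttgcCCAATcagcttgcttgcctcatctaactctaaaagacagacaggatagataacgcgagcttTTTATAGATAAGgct
LHCB4.3 (chr2:16745378-16745627): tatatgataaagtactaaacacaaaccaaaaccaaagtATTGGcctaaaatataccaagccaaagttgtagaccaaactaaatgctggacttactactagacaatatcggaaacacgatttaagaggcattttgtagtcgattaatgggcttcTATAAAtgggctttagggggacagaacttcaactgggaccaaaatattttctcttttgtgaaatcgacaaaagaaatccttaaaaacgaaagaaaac
LHCB4.1 is the only gene of the 4 with a G-box, which starts 74 bases before the gene. The CCAAT box nearest to the gene starts 35 bases before LHCB4.1, 76 before LHCB4.2, 101 before LHCB3 and 212 before LHCB4.3. The last run of capitals of LHCB4.2 is a TATA box followed at once by an I-box core, with no shared base.

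The remaining members of the minor photosystem II antenna were LHCB5, LHCB6 and LHCB7. LHCB5 (AT4G10340, chr4:6408007-6409849), which encodes CP26, had 4930, 4391 and 6324 CPM in the ucp1 ucp3-labelled libraries, against 3259, 3382 and 3928 CPM in the wild-type libraries. The groups did not overlap, with a log2 fold change of 0.57 (95% interval 0.24 to 0.89, edgeR adjusted p = 0.0782). LHCB6, which encodes CP24, had 2604, 2401 and 3274 CPM in the ucp1 ucp3-labelled libraries, against 2205, 2089 and 2598 CPM in the wild-type libraries, and the groups overlapped (log2 fold change 0.26, edgeR adjusted p = 0.394). LHCB7 was the gene with the lowest level of the 36, at 12.1 ± 1.83 TPM in the ucp1 ucp3-labelled libraries and 12.1 ± 2.31 TPM in the wild-type libraries (SD, n = 3 each).

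The photosystem I antenna divided by level. LHCA1 to LHCA4, which form the antenna belt of photosystem I, had log2 fold changes of 0.46 to 0.55 with a median of 0.49. In all 4 every ucp1 ucp3-labelled library lay above every wild-type library in CPM, which was so for 11.2% of all tested genes. LHCA1 (AT3G54890, chr3:20339504-20341176) had 4132, 3476 and 5197 CPM in the ucp1 ucp3-labelled libraries, against 2908, 2811 and 3006 CPM in the wild-type libraries (log2 fold change 0.55, 95% interval 0.24 to 0.87, edgeR adjusted p = 0.0782). The groups did not overlap, with an SD of 869 CPM in the ucp1 ucp3-labelled libraries and 97.8 CPM in the wild-type libraries. LHCA5 and LHCA6, low-abundance proteins that link photosystem I to the NADH dehydrogenase-like complex, had log2 fold changes of 0.01 (95% interval -0.25 to 0.28) and 0.19 (-0.09 to 0.47), and their groups overlapped. LHCA5, LHCA6, LHCB4.3 and LHCB7 had the lowest TPM levels of the 36 genes, with a median log2 fold change of 0.01, while the other 9 antenna genes had a median of 0.49 and a range of 0.26 to 0.72. This division was made with the values in view, and no test of it was made.

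**Figure D1:**
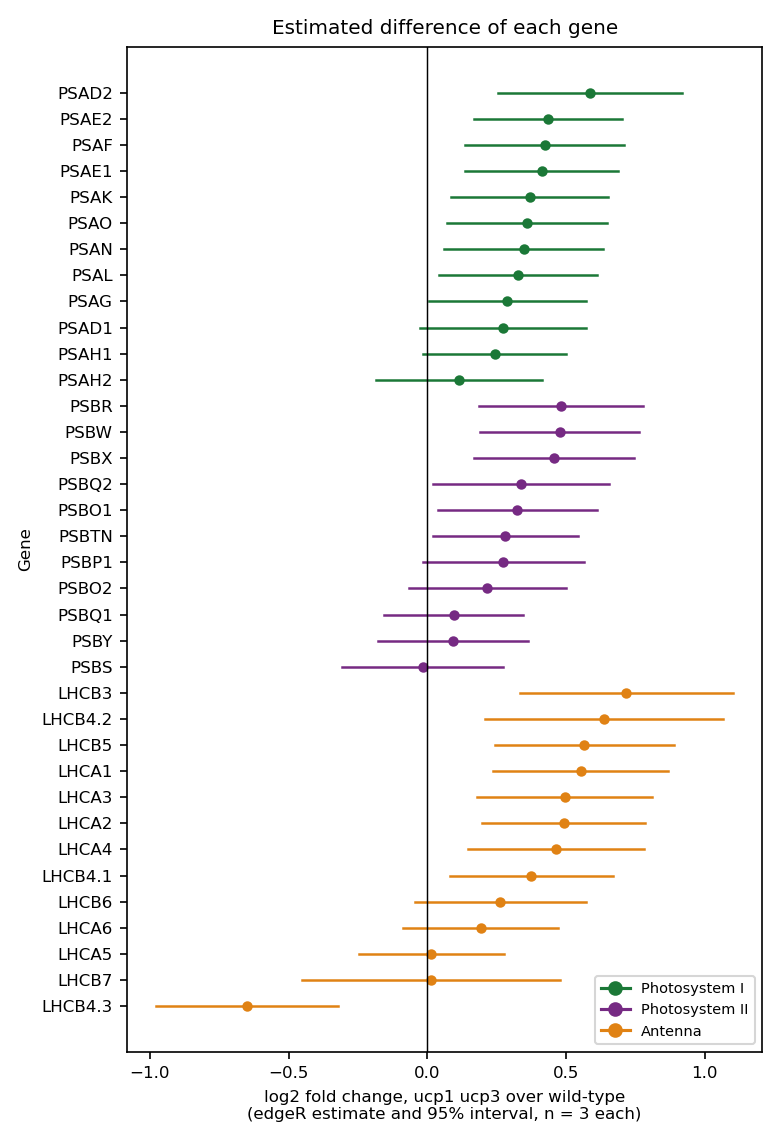
Log2 fold changes, ucp1 ucp3-labelled libraries over wild-type, of the 36 genes with their 95% intervals from the edgeR fit, grouped by class; the line at 0 marks equal levels. The antenna genes run from -0.65 (LHCB4.3) to 0.72 (LHCB3), the photosystem I genes from 0.11 to 0.59 and the photosystem II genes from -0.02 to 0.48.

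Among the 12 photosystem I subunit genes the median log2 fold change was 0.35 and the range 0.11 to 0.59. At an unadjusted p under 0.05, 9 were higher and 0 lower, against 8.04% and 8.37% of all tested genes. In 10 of 12 every ucp1 ucp3-labelled library lay above every wild-type library in CPM, against 11.2% of all tested genes. In TPM this was so for 7 of 12, against 6.64%. DESeq2 called 4 of them higher, PSAD2, PSAE1, PSAE2 and PSAF, against 1.34% of all tested genes. PSAD and PSAE line the stromal side, where ferredoxin docks. PSAD2 (AT1G03130, chr1:753307-754262) had 519, 487 and 756 CPM in the ucp1 ucp3-labelled libraries, against 369, 366 and 429 CPM in the wild-type libraries. The groups did not overlap, and the log2 fold change was 0.59 (95% interval 0.25 to 0.92, edgeR adjusted p = 0.0782). PSAE2 (AT2G20260, chr2:8736734-8737767) had 595, 494 and 654 CPM in the ucp1 ucp3-labelled libraries, against 452, 407 and 425 CPM in the wild-type libraries (log2 fold change 0.44, edgeR adjusted p = 0.0951). PSAE1 (AT4G28750, chr4:14202758-14204061) had 1411, 1325 and 1738 CPM in the ucp1 ucp3-labelled libraries, against 1129, 1070 and 1157 CPM in the wild-type libraries (log2 fold change 0.41, edgeR adjusted p = 0.123). For PSAE1 and PSAE2 too, each ucp1 ucp3-labelled library lay above the highest wild-type library.

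PSAF (AT1G31330, chr1:11214676-11216141) encodes the subunit that helps plastocyanin dock on the lumenal side. It had 3400, 2983 and 3929 CPM in the ucp1 ucp3-labelled libraries, against 2586, 2391 and 2712 CPM in the wild-type libraries, without overlap (log2 fold change 0.42, edgeR adjusted p = 0.128). PSAG, PSAK, PSAL, PSAN and PSAO, which encode further small subunits, had log2 fold changes of 0.29 to 0.37 and adjusted p of 0.176 to 0.294. Of the 12 photosystem I genes PSAD1 and PSAH2 had overlapping groups. PSAD1 (AT4G02770, chr4:1229031-1230164) had 1242, 1182 and 1573 CPM in the ucp1 ucp3-labelled libraries, against 1102, 966 and 1234 CPM in the wild-type libraries (log2 fold change 0.27, edgeR adjusted p = 0.358). PSAH is a subunit next to the docking site of mobile trimers. PSAH1 had 789, 738 and 911 CPM in the ucp1 ucp3-labelled libraries, against 700.2, 642 and 713 CPM in the wild-type libraries (log2 fold change 0.24, edgeR adjusted p = 0.336). PSAH2 had 594, 700.1 and 869 CPM in the ucp1 ucp3-labelled libraries, against 671, 606 and 714 CPM in the wild-type libraries (log2 fold change 0.11, edgeR adjusted p = 0.751). For PSAH2, replicate 1 labelled ucp1 ucp3 was the lowest of all 6 libraries.

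Among the 11 photosystem II genes the median log2 fold change was 0.28 and the range -0.02 to 0.48. At an unadjusted p under 0.05, 6 were higher and 0 lower, against 8.04% and 8.37% of all tested genes. In 6 genes every ucp1 ucp3-labelled library lay above every wild-type library in CPM, against 11.2% of all tested genes. DESeq2 called 3 higher, PSBR, PSBW and PSBX, against 1.34% of all tested genes. PSBW (AT2G30570, chr2:13019028-13020311), a small membrane subunit that stabilises supercomplexes with the antenna, had 1912, 1783 and 2439 CPM in the ucp1 ucp3-labelled libraries, against 1475, 1435 and 1490 CPM in the wild-type libraries. The wild-type libraries differed little among themselves, and the groups did not overlap (log2 fold change 0.48, 95% interval 0.19 to 0.76, edgeR adjusted p = 0.0910). PSBR (AT1G79040, chr1:29735952-29737009), which helps the oxygen-evolving proteins to assemble, had 4432, 3526 and 4863 CPM in the ucp1 ucp3-labelled libraries, against 3033, 3184 and 2957 CPM in the wild-type libraries (log2 fold change 0.48, edgeR adjusted p = 0.0960). On the TPM scale PSBR had the highest level of the 36 genes, at 7769 ± 962 TPM in the ucp1 ucp3-labelled libraries and 6059 ± 369 TPM in the wild-type libraries (SD, n = 3 each). PSBX (AT2G06520, chr2:2587729-2588448), a small membrane subunit, had 1573, 1360 and 1878 CPM in the ucp1 ucp3-labelled libraries, against 1247, 1091 and 1163 CPM in the wild-type libraries (log2 fold change 0.46, edgeR adjusted p = 0.104).

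The extrinsic proteins PSBO, PSBP and PSBQ shield the manganese cluster that splits water. PSBO1 (AT5G66570, chr5:26568572-26570461) had 5192, 4610 and 6056 CPM in the ucp1 ucp3-labelled libraries, against 4217, 4157 and 4281 CPM in the wild-type libraries, without overlap (log2 fold change 0.32, edgeR adjusted p = 0.241). PSBO2 had 1006, 981 and 1304 CPM in the ucp1 ucp3-labelled libraries, against 1001, 954 and 870 CPM in the wild-type libraries (log2 fold change 0.22, edgeR adjusted p = 0.455). PSBO2 overlapped between the groups, with wild-type replicate 1 above replicate 2 labelled ucp1 ucp3. PSBQ1 had 1091, 1120 and 1295 CPM in the ucp1 ucp3-labelled libraries, against 1104, 1083 and 1093 CPM in the wild-type libraries (log2 fold change 0.09, edgeR adjusted p = 0.756). PSBQ2 had 1381, 1336 and 1879 CPM in the ucp1 ucp3-labelled libraries, against 1110, 1136 and 1380 CPM in the wild-type libraries (log2 fold change 0.34, edgeR adjusted p = 0.269). Both PSBQ genes overlapped between the groups. PSBS, the sensor of lumen acidity that dissipates excess light as heat, had 611, 694 and 837 CPM in the ucp1 ucp3-labelled libraries, against 803, 714 and 643 CPM in the wild-type libraries. The groups interleaved, and the log2 fold change was -0.02 (95% interval -0.31 to 0.27). PSBP1, PSBTN and PSBY had log2 fold changes of 0.27, 0.28 and 0.09.

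Summed over genes, each class lay higher in every ucp1 ucp3-labelled library than in any wild-type library. The photosystem I genes summed to 18528, 17206 and 22725 CPM in the ucp1 ucp3-labelled libraries, against 15429, 14337 and 16046 CPM in the wild-type libraries, a ratio of means of 1.28. The photosystem II genes summed to 22895, 20600 and 27405 CPM in the ucp1 ucp3-labelled libraries, against 18996, 18564 and 18971 CPM in the wild-type libraries, a ratio of 1.25. The antenna genes summed to 32291, 29453 and 42043 CPM in the ucp1 ucp3-labelled libraries, against 23779, 23306 and 26481 CPM in the wild-type libraries, a ratio of 1.41. Levels per transcript length, in TPM, let the classes be set against each other.

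**Figure D2:**
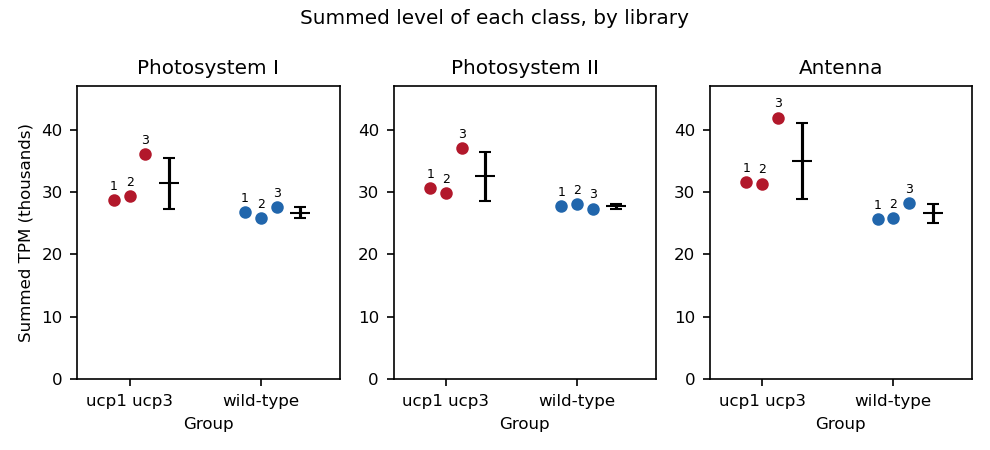
Summed level of the photosystem I, photosystem II and antenna genes in TPM, with a point for each library and the mean and SD of each group (n = 3); ucp1 ucp3-labelled libraries stand left of wild-type libraries in each class. All 9 points of the ucp1 ucp3-labelled libraries lie above the wild-type points of their class.

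On the TPM scale the photosystem I genes summed to 31365 ± 4076 in the ucp1 ucp3-labelled libraries and 26704 ± 899 in the wild-type libraries (SD, n = 3 each), a ratio of 1.17. The photosystem II genes summed to 32517 ± 3959 TPM in the ucp1 ucp3-labelled libraries and 27682 ± 360 TPM in the wild-type libraries, a ratio of 1.17. The antenna genes summed to 34953 ± 6049 TPM in the ucp1 ucp3-labelled libraries and 26557 ± 1453 TPM in the wild-type libraries, a ratio of 1.32. Summed over all tested genes, the ratio was 1.05 in CPM, which has TMM scaling, and 1.00 in TPM, which has not. As the plot of summed levels shows, replicate 3 was the highest of the ucp1 ucp3-labelled libraries in each class. Within a library, the sum of the antenna genes over the sum of the photosystem II genes in TPM was 1.03, 1.05 and 1.13 in the ucp1 ucp3-labelled libraries, against 0.924, 0.922 and 1.03 in the wild-type libraries. Wild-type replicate 3 lay just above the lowest ucp1 ucp3-labelled library on this ratio, so the groups overlapped. The sum of the photosystem I genes over that of the photosystem II genes was 0.936, 0.983 and 0.973 in the ucp1 ucp3-labelled libraries, against 0.964, 0.921 and 1.01 in the wild-type libraries, and the groups interleaved.

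**Figure D3:**
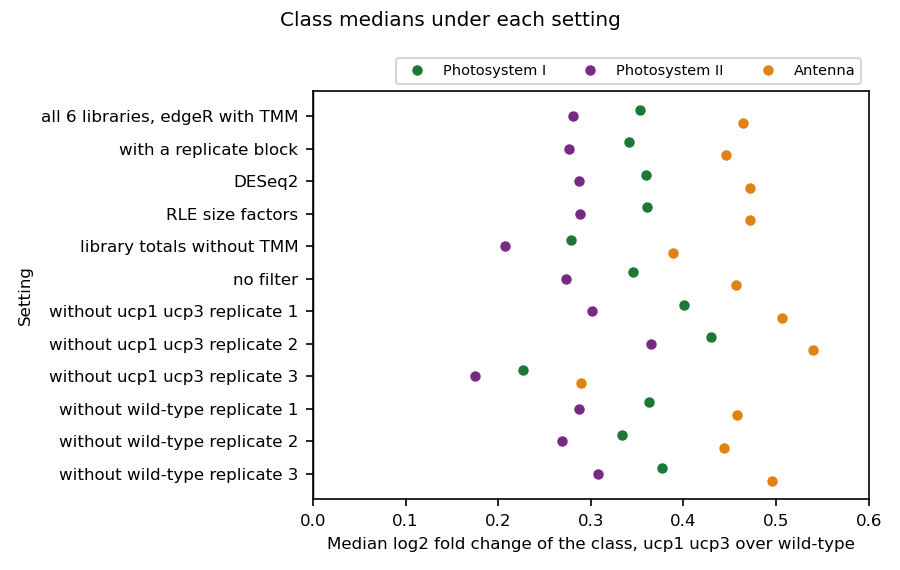
Median log2 fold change, ucp1 ucp3-labelled libraries over wild-type, of each class of photosystem genes with all 6 libraries and with each library left out in turn. The medians stay above 0 and run from 0.23 to 0.43 for photosystem I, 0.17 to 0.36 for photosystem II and 0.29 to 0.54 for the antenna genes.

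The plot of class medians shows that the lowest value of each class came from leaving out replicate 3 labelled ucp1 ucp3 and the highest from leaving out replicate 2 labelled ucp1 ucp3. The antenna median was above those of both photosystems in each of these fits. No test of that order was made.

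For 6 pairs of copies, the split of counts between copies was compared. The exact two-sided permutation test over 6 libraries cannot go below p = 0.1 here, and no pair passed after adjustment over 6 pairs. PSAD1 held 70.5, 70.8 and 67.5% of the counts of the PSAD pair in the ucp1 ucp3-labelled libraries, against 74.9, 72.5 and 74.2% in the wild-type libraries. This was the only pair whose groups did not overlap (69.6% ± 1.83 in the ucp1 ucp3-labelled libraries and 73.9% ± 1.24 in the wild-type libraries, SD, n = 3 each). Its exact permutation p was 0.1, or 0.45 after adjustment. LHCB4.1 held 76.2, 77.2 and 72.3% of the LHCB4.1 and LHCB4.2 counts in the ucp1 ucp3-labelled libraries, against 81.1, 78.3 and 75.6% in the wild-type libraries (exact permutation p = 0.3). PSBQ1 held 44.1, 45.6 and 40.8% of its pair in the ucp1 ucp3-labelled libraries, against 49.9, 48.8 and 44.2% in the wild-type libraries (exact permutation p = 0.2). For the PSAE, PSAH and PSBO pairs the means differed by -0.398, 2.34 and 1.08 percentage points, with exact permutation p of 0.7, 0.4 and 0.3. The coding sequences of the copies were 79.7 to 88.0% identical, PSAD1 and PSAD2 being the closest. Of the 31-base words of the transcripts, 0.45% in PSAD1 and 0.54% in PSAD2 were shared with the other copy. The share was 0.08 to 0.15% in the PSBO and PSBQ copies and 0% in the other pairs. How the authors' tool divided reads that fit both copies was not tested.

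**Figure D4:**
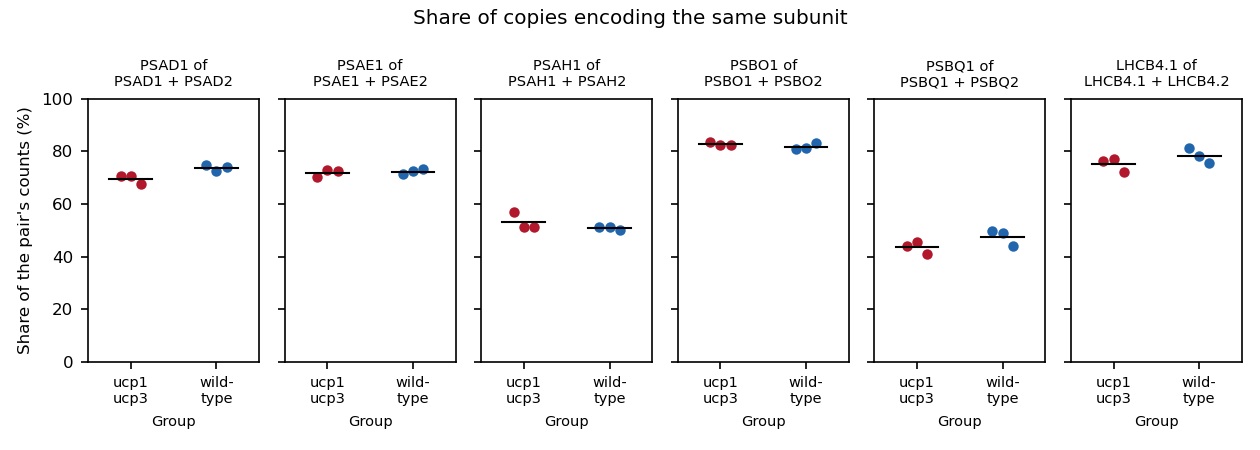
Percent of the estimated counts of each pair that fell in its first copy (PSAD1, PSAE1, PSAH1, PSBO1, PSBQ1 and LHCB4.1), with a point for each library, ucp1 ucp3-labelled libraries left of wild-type libraries. The groups are apart for PSAD1, at 67.5 to 70.8% in the ucp1 ucp3-labelled libraries and 72.5 to 74.9% in the wild-type libraries, and overlap for the other 5 pairs.

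As the plot of copy shares shows, the first copy was the larger source of counts in every library for PSAD, PSAE, PSBO and LHCB4.1. For PSAH this was so except in wild-type replicate 3, where PSAH1 held 49.97%. PSBQ1 had fewer counts than PSBQ2 in every library. At the level of transcript models, 27 of the 36 genes had 1 model in the tables and 9 had several. LHCA5 was the gene with counts spread over models in every library: its second model held 74.5, 68.3 and 67.8% in the ucp1 ucp3-labelled libraries, against 71.2, 74.4 and 69.5% in the wild-type libraries, and the groups overlapped. The third model of LHCA3 held 5.91, 0.533 and 6.77% in the ucp1 ucp3-labelled libraries, against 0, 2.58 and 0% in the wild-type libraries, so that its share varied within both groups.

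Sequence shared with other genes could enter these levels, since the strand setting of the quantification is not given in the sources used here. For 8 of the 36 genes at least 5% of the 31-base words of the transcripts lay opposite another annotated gene, most for PSAG (59.9%), PSAH1 (49.9%) and PSAE1 (30.9%). The share was 21.4% for PSAH2, 12.9% for LHCB3, 7.49% for LHCA5, 5.72% for PSAE2 and 14% for LHCB6. The opposite genes that were quantified had mean levels of at most 44.7 CPM in the ucp1 ucp3-labelled libraries and 49.8 CPM in the wild-type libraries, the highest being AT2G20270 next to PSAE2. AT1G55673 opposite PSAG, AT4G28755 opposite PSAE1 and AT1G05207 opposite LHCB6 were not among the loci quantified. Their levels are thus not known here. On the same strand LHCA2 alone shared 5% or more, 15.1% with AT5G28450, which stood at 0.105 CPM in the ucp1 ucp3-labelled libraries and 0 CPM in the wild-type libraries.

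Upstream motifs were counted in the 250 bases before the gene start of all 36 genes and of 27443 nuclear protein-coding genes of the TAIR10.1 annotation. The G-box CACGTG, a palindrome, was in 9 of the 36 and in 6.49% of all promoters. A CCAAT box was in 20 of the 36 (55.6%) and in 46.0% of all promoters, but unevenly by class: in 11 of 13 antenna genes (84.6%), 7 of 12 photosystem I genes (58.3%) and 2 of 11 photosystem II genes (18.2%). The I-box core GATAAG was in 8 of the 36 (22.2%) and 12.3% of all promoters, and TATAAA in 18 (50.0%) and 47.3%. The evening element AAATATCT was in 1 of the 36, LHCA5, and in 4.79% of all promoters. The 9 genes with a G-box had a median log2 fold change of 0.28 and the 27 without it 0.36. The 20 genes with a CCAAT box had a median of 0.40 and the 16 without it 0.28. These matches describe the letters of the windows, which in places include a neighbouring gene, and say nothing of which factor binds there.

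Genes that work with the photosystems were examined as lists. Apart from the LHCB1 and LHCB2 list, edgeR and DESeq2 called 0 genes of these lists in either direction. Over all tested genes 8.04% were higher and 8.37% lower at an unadjusted p under 0.05. Of 11 genes for photosynthetic electron carriers, 1 was higher and 0 lower at an unadjusted p under 0.05, with a median log2 fold change of 0.16. Plastocyanin PETE1 stood at 0.46 (edgeR adjusted p = 0.105) and ferredoxin FD1 at -0.26 (adjusted p = 0.380). The 3 nuclear genes of the chloroplast ATP synthase had a median of -0.05, with ATPD at -0.13 and ATPG at 0.11, and 0 passed the unadjusted threshold in either direction. The 6 tested plastid-encoded photosystem subunits, of 10 listed, had a median of 0.43, with 1 higher and 0 lower at the unadjusted threshold. Of these psbA, the photosystem II reaction-centre protein D1, stood at 0.36 (adjusted p = 0.177) and psbC, the core antenna CP43, at 0.75 (adjusted p = 0.349). For psbC the values were 37.0, 17.0 and 18.1 CPM in the ucp1 ucp3-labelled libraries, against 17.4, 9.70 and 15.8 CPM in the wild-type libraries. The groups overlapped for all 6 tested plastid genes. Plastid transcripts held 0.0332 to 0.0498% of the estimated counts in the ucp1 ucp3-labelled libraries and 0.0301 to 0.0441% in the wild-type libraries. Of the 8 LHCB1 and LHCB2 genes of the trimeric antenna, edgeR called 3 higher, against 0.781% of all tested genes. DESeq2 called 5 of them higher, against 1.34% of all tested genes. Those of edgeR were LHCB1.4 (log2 fold change 1.55, edgeR adjusted p = 0.00200), LHCB1.5 (0.97, adjusted p = 0.0206) and LHCB1.3 (0.72, adjusted p = 0.0320). The median of the 8 was 0.66. These copies are close in sequence, so reads may be divided unevenly among them.

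Of the 14 chlorophyll synthesis genes, 2 were higher and 3 lower at the unadjusted threshold, against 8.04% and 8.37% of all tested genes. The median log2 fold change of the 14 was 0.01. The protochlorophyllide reductase PORA stood at 1.13 (edgeR adjusted p = 0.143) and HEMA1, the enzyme at the entry of the pathway, at 0.46 (adjusted p = 0.170). PORA rested on 6 to 62 estimated counts in the ucp1 ucp3-labelled libraries and 5 to 16 in the wild-type libraries. The 4 genes of antenna import and insertion had a median of 0.07, with CPSRP54 at 0.09 and CPFTSY at 0.10, and 0 passed the unadjusted threshold. Among 9 photosystem assembly genes 2 were higher and 2 lower at that threshold, with a median of -0.05, PSB28 at -0.39 (adjusted p = 0.178) and Y3IP1 at -0.30 (adjusted p = 0.193). Among 7 tested genes that regulate light use 2 were higher and 1 lower, with a median of 0.14. The xanthophyll-cycle enzymes ZEP and VDE stood at 0.43 (adjusted p = 0.184) and 0.33 (adjusted p = 0.254). The 9 clock genes had a median of 0.02, with 1 higher and 0 lower at the unadjusted threshold, TOC1 at 0.35 (adjusted p = 0.175) and LHY at 0.77 (adjusted p = 0.365). LHY had 3.43, 4.57 and 11.7 CPM in the ucp1 ucp3-labelled libraries, against 3.07, 2.22 and 3.49 CPM in the wild-type libraries.

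The 6 regulators of nuclear photosynthesis genes had a median log2 fold change of -0.29. At the unadjusted threshold 0 were higher and 2 lower, against 8.04% and 8.37% of all tested genes. GUN1, a plastid protein of plastid-to-nucleus signalling, had 231, 286 and 249 CPM in the ucp1 ucp3-labelled libraries, against 323, 342 and 350 CPM in the wild-type libraries. The groups did not overlap, and the log2 fold change was -0.40 with an edgeR adjusted p of 0.0953. The GATA factor GNC stood at -0.48 (adjusted p = 0.244).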

How the data were processed

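Messenger RNA was sequenced after a TruSeq library preparation that keeps the strand, per the labels' protocols. For each of 6 libraries the authors deposited a table that holds, per the file headers, an estimated count and a TPM value for every transcript model. Per the submitters' processing notes kallisto and DESeq2 were used with TAIR10. Their versions, the transcript index and the strand setting are not given in the sources used here.

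Estimated counts of 35386 models were summed to 27416 loci and rounded to whole numbers. The test was that of edgeR 4.0.16, run in R 4.3.3 (default expression filter leaving 17415 genes, TMM normalisation, robust quasi-likelihood F test, genotype as the only term) and genes were called at a Benjamini-Hochberg adjusted p under 0.05. Levels in CPM divide counts by TMM-scaled library sizes. TPM values were summed per locus as the authors gave them, without TMM scaling. Fold changes put the ucp1 ucp3 group over wild-type, with 95% intervals from the fit. Between the deepest and the shallowest library, 3 counts are worth 0.264 to 2.71 CPM, a floor that covers counting error only. P-values measure the spread between samples labelled biological replicates, and nothing more says how these were separated. No replicates were duplicates within sampling noise.

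The alternatives were DESeq2 1.42.0, RLE size factors, library totals, no filter, a replicate block, TPM values and each library left out in turn. The genes and lists were chosen with earlier results of these data known. Values per library are given for the 4 genes of each class with the smallest p, for both copies of each pair and for others that the text compares. From each list called genes are named, up to 4, and otherwise the 2 with the smallest p. Promoters and coordinates come from the TAIR10.1 RefSeq genome, whose annotation matched 26719 loci, since the deposited tables hold no coordinates.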

Additional observations from a re-analysis of the deposited data

How the results depend on the processing

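The median log2 fold change of each class stayed above 0 with DESeq2, RLE size factors, library totals, no filter, a replicate block and each library left out; for TPM values no median was computed. Leaving out each library in turn gave 0.23 to 0.43 for photosystem I, 0.17 to 0.36 for photosystem II and 0.29 to 0.54 for the antenna genes, 0 to 11 genes called higher and 0 to 1 called lower. The number of the 36 genes called higher, 0 in edgeR, was 14 with DESeq2 and 5 without the expression filter (LHCA1, LHCA2, LHCB3, LHCB5 and PSAD2). The number called lower was 1 without the filter, 1 with library totals in place of TMM and 1 without wild-type replicate 3, LHCB4.3 in each (adjusted p = 0.0292, 0.0438 and 0.0459). Library totals put the median of all genes at -0.06. The class medians were then 0.28 for photosystem I, 0.21 for photosystem II and 0.39 for the antenna genes. With TMM they were 0.35, 0.28 and 0.46. Library totals turned LHCA5 to -0.051 and LHCB7 to -0.037. Leaving out single libraries also turned 5 genes with small estimates, which then ran from -0.075 to 0.096 for LHCA5, -0.13 to 0.16 for LHCB7, -0.029 to 0.24 for PSAH2, -0.14 to 0.083 for PSBS and -0.025 to 0.15 for PSBY. With a replicate block 1 gene was called higher, LHCB3 (adjusted p = 0.041), against 0.701% of all genes. Libraries of the same number did not deviate together (r = -0.07, -0.10 and -0.01), so the numbers were not taken as pairs. No library correlated best with the library of its own number in the other group. The causes of these differences were not tested. In the shallowest library LHCB4.3 and LHCB7 had 19 and 14 estimated counts.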
